A study of Mus musculus with 9 samples.

Results

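A set of 10 genes of ADP-ribosylation was followed through bone marrow-derived dendritic cells (DCs) at rest and after 2 immune stimuli: *Parp1*, *Parp3*, *Parp8*, *Parp9*, *Parp10*, *Parp11*, *Parp12*, *Parp14*, *Zc3hav1* and *Dtx3l*. They were the rows of the count table bearing these symbols, 10 of 55471 genes, and all 10 were among the 16260 genes with enough counts to be tested. The cells were wild-type mouse bone marrow cultures grown with GM-CSF, a growth factor that drives myeloid precursors towards a DC-like state. Of the 9 libraries, 3 came from unstimulated cells, 3 from cells given LPS, the bacterial component sensed by Toll-like receptor 4, and 3 from cells given IFN-β, the antiviral cytokine, all at 6 h. Libraries carried the letters A, B and C within each condition, and no source used here says whether a letter marks 1 mouse or 1 culture. The p-values therefore measure the spread between these libraries, which may be technical.

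PARP proteins, also called ADP-ribosyltransferases, take ADP-ribose from NAD and attach it to proteins or nucleic acids. A few, such as PARP1, build long poly(ADP-ribose) chains at DNA breaks, most others attach single ADP-ribose units, and PARP9 and ZAP (encoded by *Zc3hav1*) lack ordinary transferase activity. Several single-unit writers and their relatives are known as interferon-stimulated genes in myeloid cells, where ZAP binds viral RNA, PARP14 and PARP9 carry macrodomains that read or remove ADP-ribose, and PARP9 works in a complex with the ubiquitin ligase DTX3L.

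The libraries held 33425803 to 35877346 counts in the unstimulated cells, 36115384 to 41015280 with LPS and 36843765 to 43735199 with IFN-β. Levels are given as CPM, counts scaled to a common library size, after scaling by TMM factors, which were 1.18 to 1.26, 0.783 to 0.841 and 0.977 to 1.02 in the same order. The stimuli could be read from textbook targets: all 9 interferon-response genes examined were higher under both stimuli, with *Rsad2* up by 8.05 and 6.22 on the log2 scale under LPS and IFN-β and *Isg15* by 5.35 and 4.25. Of 5 targets of Toll-like receptor signalling, all 5 rose with LPS and 3 with IFN-β (among them *Nos2* by 5.38 and *Il6* by 1.81 on the log2 scale). The cytokine gene *Il12b* had a log2 fold change of 10.05 with LPS and 0.33 with IFN-β (edgeR, adjusted p = 5.3e-10 and 0.13, the latter 0.04 with the replicate letter as a block). None of the 5 DC markers (*Itgax*, *H2-Ab1*, *Cd74*, *Flt3*, *Zbtb46*) was at 0, nor was any of the 5 macrophage markers (*Adgre1*, *Csf1r*, *Mertk*, *Cd68*, *Fcgr1*), whose summed levels were 4218 to 6399 CPM and 1662 to 2692 CPM across libraries. The DC sum was 4218 to 5046 CPM in unstimulated, 5718 to 6399 CPM in LPS and 4693 to 4959 CPM in IFN-β libraries. With LPS 4 of the 5 DC markers rose, against 32.8% of all genes, and 1 was not called. With IFN-β all 5 were not called. The macrophage sum was 1662 to 2104 CPM in unstimulated, 1864 to 2416 CPM in LPS and 2365 to 2692 CPM in IFN-β libraries. The part of either sum in the results below was not tested. The 5 macrophage markers did not move together. With LPS 3 rose, *Csf1r* fell by 0.97 on the log2 scale and 1 was not called. With IFN-β *Fcgr1* rose by 2.54 and *Mertk* by 1.14, and 3 were not called. Markers of B cells, T and NK cells, neutrophils, mast cells and erythroid cells each summed to at most 1.49 CPM.

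Of the 10 genes, 9 rose under LPS and the same 9 rose under IFN-β, while *Parp1* fell under both (edgeR quasi-likelihood F-test, Benjamini-Hochberg adjusted p under 0.05). Over all genes tested, 32.8% were called higher and 35.4% lower under LPS, and 23.6% higher and 23.3% lower under IFN-β. The median log2 fold change of the 10 genes was 2.45 with LPS and 1.88 with IFN-β, against -0.04 and -0.02 over all genes. Between the stimuli, 6 of the 10 were lower with IFN-β than with LPS, 2 were higher and 2 were not called. In this fit 23.3% and 25.8% of all genes were called lower and higher. With the replicate letter as a block 8 of the 10 were lower and 2 higher, and the all-gene shares of that fit are not given here. All 10 genes had non-overlapping libraries in each comparison, as had 72.4% of all genes for LPS, 58.1% for IFN-β and 56.8% for IFN-β against LPS. Both stimuli were compared with the same unstimulated libraries, so the 2 sets of fold changes are not independent. Scaling by library size alone moved the all-gene median to -0.62 with LPS and -0.32 with IFN-β and left the same 9 genes raised and *Parp1* lowered. In bulk RNA, fewer cells of a type and less RNA per cell cannot be told apart. *Parp1* moved against its grouping as an interferon-linked gene, and *Dtx3l* belongs to the group as the partner of PARP9 and is no PARP.

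**Figure D1:**
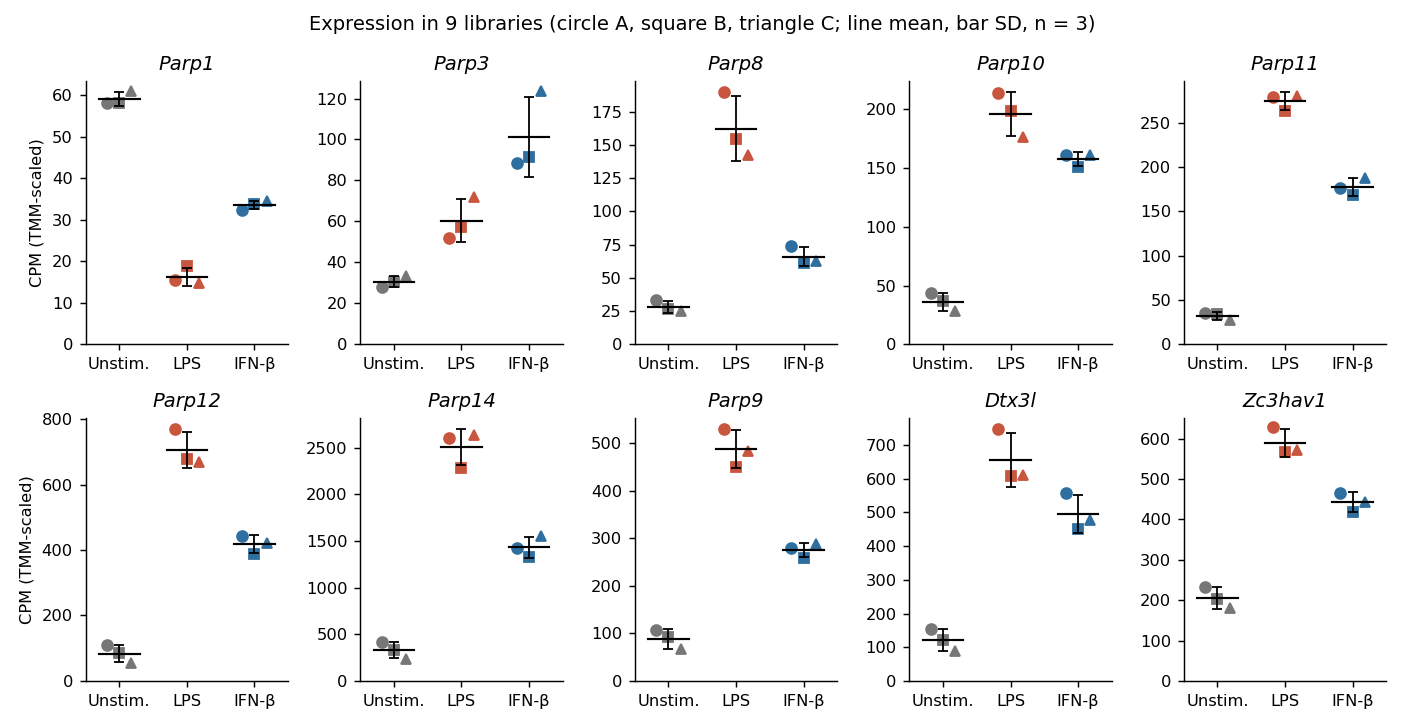
CPM of each of the 10 genes (vertical axes, TMM-scaled, each starting at 0) in the 3 unstimulated, 3 LPS and 3 IFN-β libraries; symbols give the library letter, lines the mean and bars the SD. *Parp1* is highest in the unstimulated libraries, *Parp3* is highest with IFN-β, and the other 8 genes are highest with LPS.

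*Parp1*, the main poly(ADP-ribose) writer at DNA strand breaks, was read at 58.0, 58.1 and 61.1 CPM in unstimulated libraries A, B and C. It was at 15.4, 18.7 and 14.7 CPM with LPS and at 32.4, 33.7 and 34.4 CPM with IFN-β. The 3 conditions stood apart with little spread inside each, and every IFN-β library lay between the other 2 groups. The fall was 3.62-fold with LPS (log2 fold change -1.86, SE 0.09, edgeR adjusted p = 3e-08) and 1.76-fold with IFN-β (-0.82, SE 0.09, adjusted p = 3.4e-05). *Parp1* was 1.04 higher on the log2 scale with IFN-β than with LPS (SE 0.09, edgeR adjusted p = 4.8e-06).

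*Parp3*, another nuclear enzyme of the DNA break response, was at 27.7, 30.6 and 33.4 CPM in the unstimulated libraries. It was at 51.8, 57.4 and 72.0 CPM with LPS and at 88.6, 91.2 and 124 CPM with IFN-β, whereas the other 8 raised genes had higher means with LPS than with IFN-β. Library C was the highest in each condition. *Parp3* rose 1.97-fold with LPS (0.98, SE 0.15, edgeR adjusted p = 0.00016) and 3.31-fold with IFN-β (1.73, SE 0.15, adjusted p = 1.1e-05), and was 0.74 higher with IFN-β than with LPS (SE 0.15, adjusted p = 0.0019). Scaling by library size alone brought the LPS change to 0.40 (adjusted p = 0.04).

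The largest rises with LPS belonged to *Parp11*, *Parp12* and *Parp14*, all single-unit writers. *Parp11* lay at 35.3, 34.0 and 26.8 CPM in unstimulated libraries A, B and C. With LPS it reached 279, 263 and 280.5 CPM, and with IFN-β 176, 168 and 188 CPM. The lowest stimulated library was thus far above the highest unstimulated one. The rise was 8.57-fold with LPS (3.10, SE 0.11, edgeR adjusted p = 4.8e-09) and 5.54-fold with IFN-β (2.47, SE 0.10, adjusted p = 2.8e-07).

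*Parp12*, an enzyme with zinc fingers that localises to the Golgi and to stress granules, stood at 109, 86.5 and 55.2 CPM before stimulation. It stood at 769, 679 and 669 CPM with LPS and at 444, 389 and 421 CPM with IFN-β. The unstimulated libraries differed among themselves more than the stimulated ones in proportion, with C lowest. *Parp12* rose 8.45-fold with LPS (3.08, SE 0.21, edgeR adjusted p = 2.8e-07) and 5.01-fold with IFN-β (2.32, SE 0.20, adjusted p = 9.5e-06).

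*Parp14*, the large macrodomain enzyme, counted 414, 333 and 238 CPM without stimulus. LPS libraries counted 2597, 2281 and 2631 CPM and IFN-β libraries 1422, 1323 and 1549 CPM. Its unstimulated libraries again fell in the order A, B, C, while the stimulated ones did not. *Parp14* rose 7.62-fold with LPS (2.93, SE 0.18, edgeR adjusted p = 1.6e-07) and 4.36-fold with IFN-β (2.12, SE 0.18, adjusted p = 7.3e-06). With IFN-β, *Parp11*, *Parp12* and *Parp14* differed from LPS by -0.63 (SE 0.10), -0.75 (SE 0.19) and -0.81 (SE 0.17) on the log2 scale (edgeR adjusted p = 0.00033, 0.0073 and 0.0025).

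RefSeq promoter windows (GRCm38.p6, 250 bases before to 50 bases after a start) were at hand for 7 of the 10 genes, 8 windows in all, and for 6 of the 7 other PARP genes. They were searched on both strands for GAAANNGAAA (TTTCNNTTTC on the other strand), the core of the interferon-stimulated response element (ISRE), for the gamma-activated site TTCNNNGAA (GAS), and for the NF-kB consensus. Of 32851 windows, 3.44% held the ISRE letters, 8.3% the GAS letters and 4.51% the NF-kB consensus. *Parp11*, the gene with the largest LPS rise, held an ISRE match from base -44 to -35 and a GAS match from -37 to -29, which overlap, counted from the start. Both were in 1 of its 2 windows, and the other window held no match. *Zc3hav1* held an NF-kB match at -100 to -91. None of the 3 was found in the windows of *Parp1*, *Parp3*, *Parp8*, *Parp12* and *Dtx3l*, which says only that these letters are not there. The RefSeq start used for *Parp1* is on the gene's strand but upstream of the gene start in GENCODE M21. Among the other PARP genes, *Parp4* held ISRE matches at -150 to -141 and -144 to -135, which overlap, and *Parp16* a GAS match at -4 to 5. The bases just upstream of 4 starts are given so that a raised gene with an ISRE match, a raised gene with none, the NF-kB match and the *Parp4* pair can be set side by side, with matched letters in capitals (5′ to 3′).
Parp11, chr6:127446720-127446839, plus strand: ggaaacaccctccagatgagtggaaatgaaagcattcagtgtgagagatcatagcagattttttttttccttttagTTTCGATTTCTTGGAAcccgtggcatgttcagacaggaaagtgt
Parp12, chr6:39118350-39118469, minus strand: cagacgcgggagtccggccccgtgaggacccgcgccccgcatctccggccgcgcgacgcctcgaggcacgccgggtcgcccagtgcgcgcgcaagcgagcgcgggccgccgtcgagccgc
Zc3hav1, chr6:38354604-38354723, minus strand: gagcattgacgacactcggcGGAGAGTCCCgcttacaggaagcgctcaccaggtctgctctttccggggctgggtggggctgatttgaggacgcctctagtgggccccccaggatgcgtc
Parp4, chr14:56575459-56575618, plus strand: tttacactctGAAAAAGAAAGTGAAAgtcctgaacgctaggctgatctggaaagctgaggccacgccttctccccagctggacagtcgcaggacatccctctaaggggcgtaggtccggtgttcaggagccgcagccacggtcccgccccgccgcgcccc
A match is a run of letters and not a measured binding site. *Parp11* and *Parp12* rose by 3.10 and 3.08 on the log2 scale with LPS and by 2.47 and 2.32 with IFN-β. Whether a match bears on a rise was not tested.

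*Parp8*, a less studied single-unit writer, was at 33.0, 26.2 and 24.7 CPM in unstimulated cells. It rose to 190.0, 155 and 143 CPM with LPS but to 74.0, 61.0 and 62.9 CPM with IFN-β. Of the 9 raised genes it had the largest gap between the stimuli, -1.30 on the log2 scale for IFN-β against LPS (SE 0.13, edgeR adjusted p = 1.9e-05). Its rises were 5.81-fold with LPS (2.54, SE 0.14, adjusted p = 7.4e-08) and 2.36-fold with IFN-β (1.24, SE 0.14, adjusted p = 4.6e-05).

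*Parp10*, a single-unit writer that acts on kinases and in DNA damage tolerance, began at 43.4, 36.6 and 28.5 CPM. LPS libraries held 214, 198 and 176 CPM and IFN-β libraries 161, 151 and 161 CPM. The 2 stimuli were close for this gene, and the highest IFN-β library lay just below the lowest LPS library. *Parp10* rose 5.43-fold with LPS (2.44, SE 0.14, edgeR adjusted p = 8.2e-08) and 4.37-fold with IFN-β (2.13, SE 0.14, adjusted p = 1.8e-06). The difference of IFN-β from LPS was -0.31 (SE 0.13, adjusted p = 0.068), and -0.30 with the replicate letter as a block (adjusted p = 0.0077).

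*Zc3hav1*, whose product ZAP directs viral RNA to decay, was already well expressed at 233, 202 and 180.0 CPM in unstimulated libraries. It lay at 629, 568 and 571 CPM with LPS and at 466, 417 and 444 CPM with IFN-β. Its rise was 2.88-fold with LPS (1.52, SE 0.10, edgeR adjusted p = 2.5e-07) and 2.16-fold with IFN-β (1.11, SE 0.10, adjusted p = 1.2e-05). The difference of IFN-β from LPS was -0.41 (SE 0.10, adjusted p = 0.0052), and -0.14 when libraries were scaled by size alone (adjusted p = 0.15).

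*Parp9*, an inactive macrodomain PARP, was at 108, 91.8 and 66.3 CPM in unstimulated libraries A, B and C. It was at 529.7, 450.3 and 483 CPM with LPS and at 279, 258 and 288 CPM with IFN-β. Its partner *Dtx3l* was at 154, 121 and 88.0 CPM, rising to 748, 609 and 609.6 CPM with LPS and to 558, 450.5 and 476 CPM with IFN-β. Both genes had unstimulated library A highest and C lowest. *Parp9* rose 5.51-fold with LPS (2.46, SE 0.15, edgeR adjusted p = 1.7e-07) and 3.11-fold with IFN-β (1.64, SE 0.15, adjusted p = 1.4e-05). *Dtx3l* rose 5.42-fold (2.44, SE 0.19, edgeR adjusted p = 7.5e-07) and 4.10-fold (2.03, SE 0.18, adjusted p = 1.3e-05). IFN-β differed from LPS by -0.83 for *Parp9* (SE 0.15, edgeR adjusted p = 0.00085). For *Dtx3l* the difference was -0.40 (SE 0.18, adjusted p = 0.08), and -0.40 with the letter as a block (adjusted p = 0.0026).

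The ratio of *Parp9* to *Dtx3l* counts does not depend on how libraries are scaled. It was 0.699, 0.759 and 0.753 in unstimulated libraries, 0.708, 0.740 and 0.792 with LPS, and 0.499, 0.573 and 0.605 with IFN-β. The unstimulated and LPS libraries overlapped, and all 3 IFN-β libraries lay below them. The log2 ratio moved by 0.02 with LPS (exact permutation test, two-sided, p = 0.9) and by -0.40 with IFN-β (p = 0.1, the smallest that 3 libraries against 3 allow by this exact test). IFN-β against LPS gave -0.42 (exact permutation test, p = 0.1). The genes lie head to head on opposite strands and share 458 bp of exon, 9.4% of the exon length of *Parp9* and 8.0% of that of *Dtx3l*. The strand setting of the counting is not given in the sources used here, so reads from the shared stretch may have been left out or given to either gene.

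**Figure D2:**
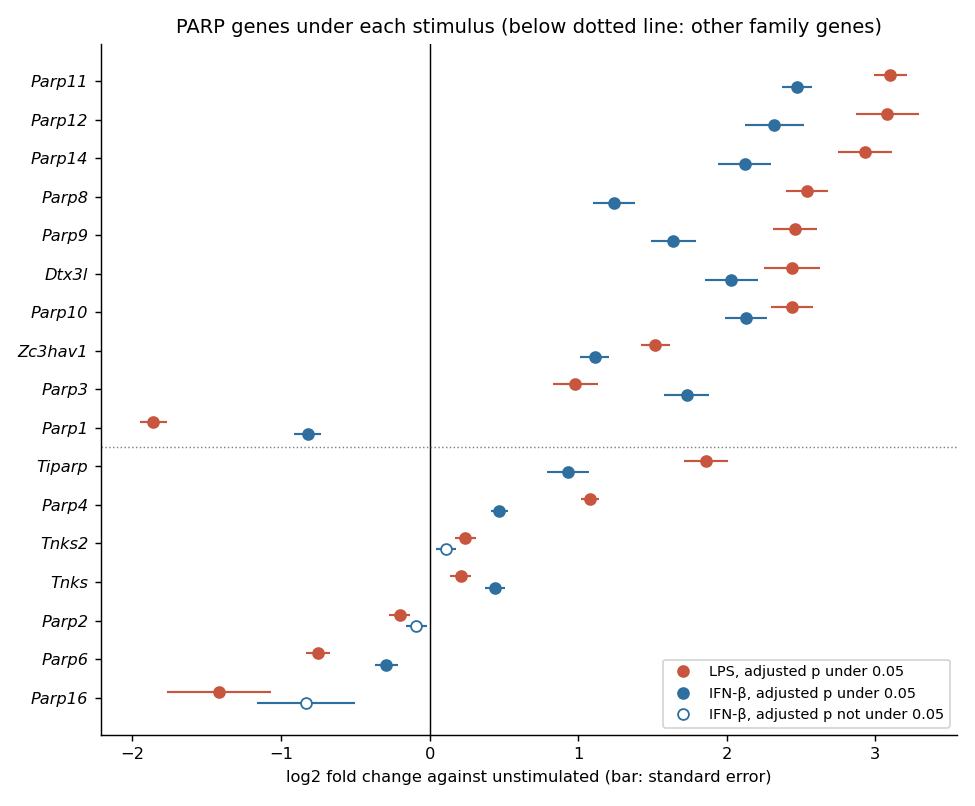
Log2 fold change against unstimulated cells (horizontal axis; bars are standard errors, 3 libraries a group) for the 10 genes, above the dotted line, and for the 7 other PARP genes, below it; filled points have an edgeR adjusted p under 0.05. The 9 raised genes lie at 0.98 to 3.10 with LPS and at 1.11 to 2.47 with IFN-β, and *Parp1* lies at -1.86 and -0.82.

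Per length the genes spanned a wide range of levels (CPM per kb of merged exon, mean ± SD, n = 3). Unstimulated cells had *Parp14* at 35.3 ± 9.43 and *Zc3hav1* at 31.4 ± 4.08, followed by *Dtx3l* at 21.1 ± 5.75, *Parp12* at 20.9 ± 6.75 and *Parp9* at 18.2 ± 4.28. *Parp1* was at 11.2 ± 0.328, *Parp10* at 8.45 ± 1.74, *Parp3* at 8.27 ± 0.769, *Parp11* at 4.55 ± 0.652 and *Parp8* at 3.15 ± 0.499. In this order *Parp14* and *Zc3hav1* overlapped, as did *Dtx3l*, *Parp12* and *Parp9*, and *Parp10* and *Parp3*, while the other neighbours did not.

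With LPS the order per length became *Parp14* at 269 ± 20.7, *Parp12* at 177 ± 13.8, *Dtx3l* at 114 ± 14.0, *Parp9* at 100.1 ± 8.19 and *Zc3hav1* at 90.4 ± 5.32 CPM per kb. Below these lay *Parp10* at 45.8 ± 4.41, *Parp11* at 39.0 ± 1.40, *Parp8* at 18.3 ± 2.77, *Parp3* at 16.3 ± 2.82 and *Parp1* at 3.08 ± 0.406. *Parp9* overlapped both of its neighbours in this order, and *Parp8* overlapped *Parp3*. With IFN-β, *Parp14* was at 154 ± 12.1, *Parp12* at 105 ± 6.95, *Dtx3l* at 86.5 ± 9.85, *Zc3hav1* at 67.9 ± 3.76 and *Parp9* at 56.4 ± 3.17 CPM per kb. *Parp10* at 36.9 ± 1.41, *Parp3* at 27.4 ± 5.30, *Parp11* at 25.2 ± 1.42, *Parp8* at 7.43 ± 0.793 and *Parp1* at 6.33 ± 0.199 followed. Here *Parp12* overlapped *Dtx3l* and *Parp3* overlapped *Parp11*. Among 16229 genes ranked by level per length, *Parp14* held rank 932 at rest, rank 184 with LPS and rank 254 with IFN-β, and *Parp1* held ranks 3249, 7700 and 5268.

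Summed per length over the 16 PARP genes tested (the 9 of the group and the 7 others), the family stood at 202 ± 28.5 CPM per kb at rest, 881 ± 60.3 under LPS and 570.3 ± 31.5 under IFN-β (SD over 3 libraries). The share of *Parp14* in that sum was 17.2% ± 2.29 at rest, 30.5% ± 1.47 with LPS and 27.0% ± 0.993 with IFN-β. *Parp12* held 10.2% ± 1.98, 20.05% ± 0.852 and 18.4% ± 0.651. The share of *Parp1* was 5.61% ± 0.965 at rest, 0.352% ± 0.0679 with LPS and 1.11% ± 0.0735 with IFN-β. *Zc3hav1* had more RNA after stimulation but a smaller share, 15.6% ± 0.346 at rest against 10.3% ± 0.303 and 11.9% ± 0.390. In both stimulated states the shares thus lay more with *Parp14* and *Parp12* than in resting cells.

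**Figure D3:**
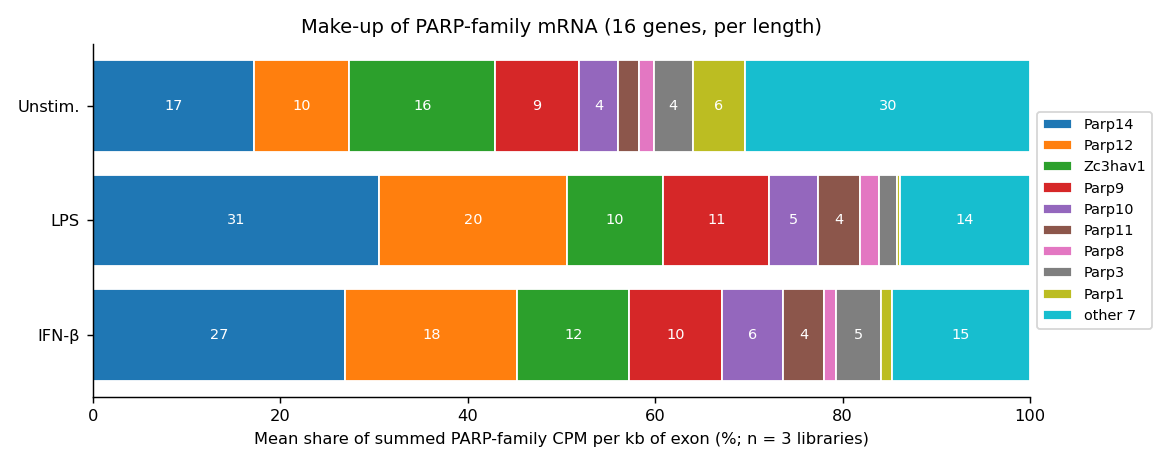
Mean share (%) of each PARP gene in the summed family level per kb of exon, in unstimulated, LPS and IFN-β libraries (n = 3 each; *Dtx3l* is no PARP and is left out); the last block holds the 7 other PARP genes together. *Parp14* and *Parp12* take larger shares under both stimuli, and *Parp1* shrinks from 5.61% to 0.352% with LPS and 1.11% with IFN-β.

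The unstimulated libraries differed in the raised genes. Library A was the highest and C the lowest of the 3 for 8 of the 10 genes, all but *Parp1* and *Parp3*. The same order was seen in the interferon-response genes, of which 8 of 9 were highest in A and 9 of 9 lowest in C. Over all genes tested, 39.9% were highest in A and 37.3% lowest in C. *Irf7*, an interferon-induced transcription factor, was at 228, 161 and 33.3 CPM in unstimulated libraries A, B and C, and *Isg15*, a ubiquitin-like interferon target, at 35.8, 22.1 and 8.80 CPM. What set these libraries apart was not tested.

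Folds were also taken between libraries of 1 letter. The ratio to the unstimulated library of the same letter was largest in C for 8 of the 9 raised genes with LPS and for 9 of 9 with IFN-β. A low unstimulated level in C raises this ratio by itself, and the share over all genes is not given here. *Parp3*, whose unstimulated level was highest in C, also had its largest ratios there (2.15 with LPS and 3.70 with IFN-β). For *Parp14* it was 6.28, 6.84 and 11.0 in A, B and C with LPS and 3.44, 3.97 and 6.50 with IFN-β. For *Parp12* it was 7.06, 7.85 and 12.1 with LPS and 4.08, 4.50 and 7.62 with IFN-β. *Parp8* varied little, at 5.75, 5.90 and 5.78 with LPS. Without unstimulated library C the *Parp14* log2 fold change was 2.74 with LPS and 1.94 with IFN-β (edgeR adjusted p = 7.7e-08 and 3.4e-06), and without library A it was 3.12 and 2.32 (adjusted p = 2e-07 and 6.6e-06). The counts of 9 raised genes and 1 lowered gene stood under both stimuli with either library left out.

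**Figure D4:**
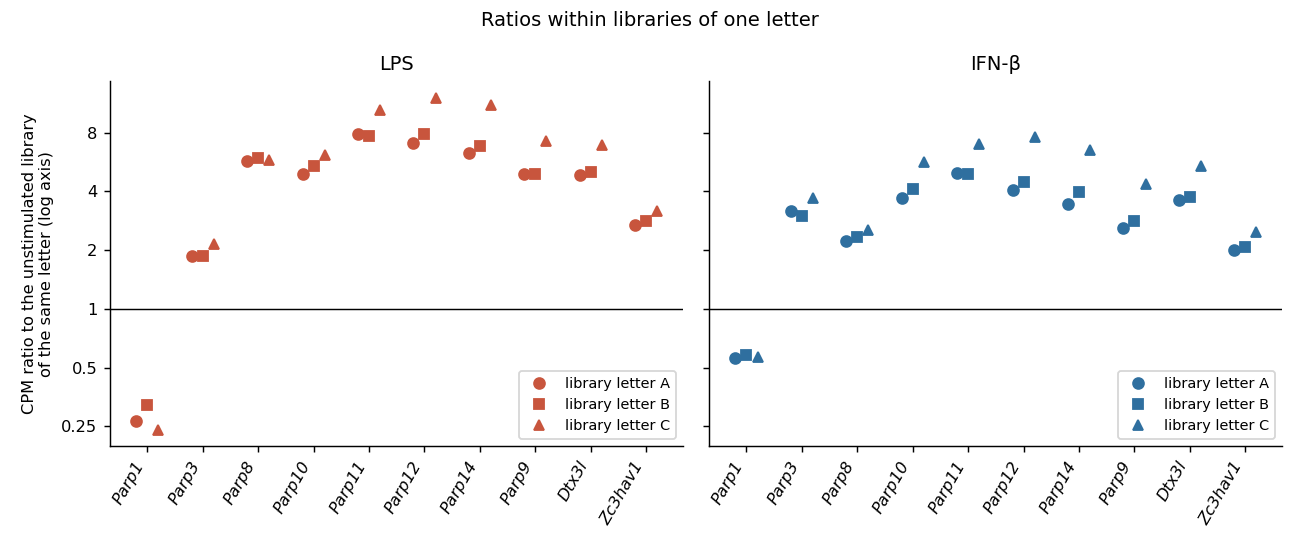
Ratio of CPM in each LPS (left) or IFN-β (right) library to the unstimulated library of the same letter, on a log axis, for the 10 genes; the line marks no change. All 27 ratios of the 9 raised genes lie above 1 under each stimulus, with letter C the highest for most genes, and *Parp1* lies below 1.

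The genes *Parp14*, *Dtx3l* and *Parp9* form a cluster of 139.7 kb on mouse chromosome 16 (GRCm38, chr16:35832874-35972605). *Parp14* is on the minus strand at 35832874 to 35871544, *Dtx3l* on the minus strand at 35926511 to 35939151 and *Parp9* on the plus strand at 35938470 to 35972605, with 55.0 kb between the first pair. The remaining genes lie apart: *Parp11* (chr6:127446840-127494261, plus), *Parp12* (chr6:39086410-39118349, minus), *Zc3hav1* (chr6:38305286-38354603, minus), *Parp1* (chr1:180568924-180601254, plus), *Parp3* (chr9:106470322-106476949, minus), *Parp8* (chr13:116854820-117025537, minus) and *Parp10* (chr15:76231174-76243441, minus). Within 250 kb of the cluster 12 other genes were tested. With LPS 5 rose, 3 fell and 4 were not called, against 32.8% higher and 35.4% lower over all genes. With IFN-β 3 rose, 2 fell and 7 were not called, against 23.6% and 23.3%. The nearest on the *Parp14* side, the pseudogene *Gm49728* 0.6 kb away, rose by 3.39 with LPS and 2.53 with IFN-β (edgeR adjusted p = 3.6e-06 and 0.00013). The unclassified transcript *Gm49730*, inside *Parp14* on the same strand and sharing 110 bp of its exons, rose by 2.95 and 2.28 (adjusted p = 1.8e-08 and 1.1e-06). Beyond *Parp9*, *Kpna1*, a nuclear import receptor 6.1 kb away, had log2 fold changes of 0.24 and -0.04 (adjusted p = 0.0046 and 0.63), and the former became -0.34 when libraries were scaled by size alone. Where *Gm49730* and *Parp14* share exon, their reads cannot be told apart. *Gm49730* and *Gm49728*, both on the strand of *Parp14*, are among the genes counted as raised under each stimulus. Whether their reads come from *Parp14* transcripts was not tested.

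Of the 16 nearest tested genes on either side of the cluster and of each other gene of the group, 8 rose, 5 fell and 3 were not called with LPS, and 6 rose, 2 fell and 8 were not called with IFN-β. Their median log2 fold change was 0.30 and 0.32, against -0.04 and -0.02 over all genes. The all-gene shares were 32.8% higher and 35.4% lower with LPS, and 23.6% and 23.3% with IFN-β. The transcript *4930599N23Rik*, which starts 0.1 kb from *Parp12* on the opposite strand, rose by 3.26 with LPS and 2.19 with IFN-β (edgeR adjusted p = 1.2e-07 and 1.1e-05), beside 3.08 and 2.32 for *Parp12*, whose upstream bases are shown above. *Zc3hav1l*, a relative of *Zc3hav1* 6.0 kb from it, rose by 2.36 and 1.14 (adjusted p = 4.1e-07 and 0.0003). *Grina*, 3.3 kb from *Parp10*, rose by 1.47 and 0.98 (adjusted p = 7.4e-08 and 7.3e-06), and *Cracr2a*, 67.1 kb from *Parp11*, fell by 1.72 and 1.05 on the log2 scale (adjusted p = 8.3e-07 and 8.5e-05). *Parp10* also shares 205 bp of exon with *Plec*, 4.8% of its exon length, and *Plec* had log2 fold changes of -0.67 and -0.10 (adjusted p = 3.2e-05 and 0.37).

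The other 7 PARP genes had smaller median changes than the group. With LPS 4 were higher and 3 lower, and with IFN-β 3 were higher, 1 lower and 3 not called, with medians of 0.21 and 0.11. Of all genes, 32.8% were higher and 35.4% lower with LPS, and 23.6% and 23.3% with IFN-β. *Tiparp*, a single-unit writer induced by the aryl hydrocarbon receptor, rose by 1.86 with LPS and 0.93 with IFN-β (edgeR adjusted p = 9.3e-07 and 0.00041). *Parp4*, the vault particle PARP whose promoter is shown above, rose by 1.08 and 0.47 (adjusted p = 6.2e-08 and 9.8e-05). *Parp6* fell by 0.75 and 0.29 on the log2 scale (adjusted p = 1.1e-05 and 0.012). *Parp16*, anchored in the endoplasmic reticulum, had -1.42 and -0.83 (adjusted p = 0.0041 and 0.061, the latter 0.009 with the letter as a block), at a level of at most 2.62 CPM in any library. *Parp2*, the close relative of *Parp1*, had -0.20 and -0.09 (adjusted p = 0.033 and 0.33), and its LPS call was lost with DESeq2 (-0.16, adjusted p = 0.11), with no filter (adjusted p = 0.083) and without any 1 of 4 libraries (unstimulated B or C, LPS B or C; adjusted p = 0.054 to 0.12). The tankyrase genes *Tnks* and *Tnks2*, poly(ADP-ribose) writers of the Wnt pathway, had 0.21 and 0.24 with LPS (edgeR adjusted p = 0.025 and 0.0076). With IFN-β they had 0.44 and 0.11 (adjusted p = 0.00062 and 0.21). Scaled by library size alone, the LPS values of *Tnks* and *Tnks2* became -0.37 and -0.34 and the IFN-β value of *Tnks2* became -0.20. The LPS call of *Tnks* was also lost with upper-quartile factors (adjusted p = 0.13), with no filter (adjusted p = 0.085) and without unstimulated library B or C or LPS library A (adjusted p = 0.054 to 0.12).

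Genes assigned here to ADP-ribose removal showed no common direction. Of 9 tested, 2 rose, 4 fell and 3 were not called with LPS, and 2 rose, 2 fell and 5 were not called with IFN-β. The lowest of the 9, not called under either stimulus, had 4 to 18 counts a library. Over all genes 32.8% rose and 35.4% fell with LPS, and 23.6% rose and 23.3% fell with IFN-β. *Adprh*, the hydrolase of ADP-ribosyl-arginine, rose by 1.09 with LPS and 0.31 with IFN-β (edgeR adjusted p = 8.6e-07 and 0.012), the latter 0.00 with size scaling alone. *Macrod1*, a macrodomain hydrolase, fell by 0.84 and 0.86 on the log2 scale (adjusted p = 0.0041 and 0.0056), and *Adprhl2*, the serine ADP-ribose hydrolase listed as *Adprs*, by 0.42 and 0.61 (adjusted p = 0.0063 and 0.0012). The level of *Macrod1* was at most 2.10 CPM in any library. *Enpp1*, a phosphodiesterase that can trim ADP-ribose, had -1.26 and -0.68 (adjusted p = 0.0074 and 0.11, the latter 0.0015 with the letter as a block).

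Genes that make or consume NAD, the substrate of active PARPs, were split. With LPS 4 of 8 tested rose and 4 fell, and with IFN-β 3 rose, 1 fell and 4 were not called. The all-gene shares were 32.8% higher and 35.4% lower with LPS, and 23.6% and 23.3% with IFN-β. *Nampt*, the rate-limiting enzyme of NAD salvage, rose by 2.08 with LPS and 1.33 with IFN-β (edgeR adjusted p = 5.1e-08 and 6.2e-06). *Cd38*, an NAD hydrolase of the cell surface, rose by 3.14 and 0.96 (adjusted p = 1.1e-06 and 0.007). *Naprt* and *Nmrk1*, which feed nicotinic acid and nicotinamide riboside into NAD, fell by 0.94 and 0.66 on the log2 scale with LPS (adjusted p = 0.011 and 0.00031) and had -0.14 and 0.04 with IFN-β (adjusted p = 0.67 and 0.8). *Naprt* was low throughout, with 33 to 40 counts in unstimulated and 9 to 20 in LPS libraries.

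Of 8 partners of PARP1 in strand-break repair, 6 fell and 2 rose with LPS, against 35.4% lower and 32.8% higher over all genes. With IFN-β 5 fell, 2 rose and 1 was not called, against 23.3% lower and 23.6% higher over all genes. Their medians were -0.43 and -0.32, against -0.04 and -0.02 over all genes. *Aplf*, a histone chaperone that binds poly(ADP-ribose), fell by 1.42 and 0.64 on the log2 scale (edgeR adjusted p = 1.2e-05 and 0.0043), and the remodeller *Chd1l* by 0.65 and 0.72 (adjusted p = 0.00015 and 0.00019). *Polb*, the base excision polymerase, rose by 1.10 and 0.61 (adjusted p = 3.5e-07 and 1e-04), and *Aptx*, which cleans up aborted ligations, by 0.74 and 0.26 (adjusted p = 7.3e-06 and 0.016), the latter -0.05 with size scaling alone.

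Of 5 cofactors of ZAP, 2 rose, 2 fell and 1 was not called under each stimulus. For all genes the shares were 32.8% higher and 35.4% lower with LPS, and 23.6% and 23.3% with IFN-β. *Trim25*, the ubiquitin ligase ZAP depends on, rose by 1.75 with LPS and 1.37 with IFN-β (edgeR adjusted p = 2.1e-06 and 4.9e-05). *Khnyn*, an endonuclease partner, rose by 0.48 and 0.54 (adjusted p = 3.8e-05 and 5.7e-05), the former -0.10 with size scaling alone. *Exosc5*, an exosome subunit, fell by 1.44 and 0.89 on the log2 scale (adjusted p = 6.1e-06 and 0.00046). *Dhx30*, an RNA helicase, had -0.21 and -0.44 (adjusted p = 0.04 and 0.0014), the former lost with DESeq2 (adjusted p = 0.10), with no filter (adjusted p = 0.056) and without any 1 of 6 libraries (adjusted p = 0.051 to 0.13). Among the Deltex relatives of DTX3L, 3 of 4 were tested: 1 rose, 1 fell and 1 was not called with LPS, and 2 fell and 1 was not called with IFN-β. *Dtx2* rose by 2.01 with LPS and had 0.25 with IFN-β (adjusted p = 4e-07 and 0.16, the latter 0.033 with the letter as a block). *Dtx3* fell by 1.16 and 0.39 on the log2 scale (adjusted p = 5.4e-06 and 0.014), and *Dtx4* had -0.22 and -0.74 (adjusted p = 0.096 and 0.00031, the former 0.013 with the letter as a block).

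Likeness of pattern was described by Pearson's r of log2 CPM (pseudocount 0.5 CPM) over the 9 libraries, which fall into 3 conditions, so that r mostly reflects the order of the condition means. The genes closest to *Parp9* were *Tor1aip2* (r = 0.9988), *Tor1aip1* (0.9980) and *Helz2* (0.9978). Those closest to *Parp14* were *Trim14* (0.9983), *Trim30a* (0.9979) and *Eif2ak2* (0.9978), the last encoding the antiviral kinase PKR. *Parp1* lay closest to *Gpr89* (0.9967), *Nacc2* (0.9963) and *Acot13* (0.9961). Within the group *Parp9* was nearest to *Parp14*, at rank 6 of all genes (0.9971), while its chromosomal partner *Dtx3l* ranked 332 (0.9819).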

How the data were processed

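RNA sequencing of 9 libraries of mouse bone marrow-derived DCs was analysed. Per the study's methods, ribosomal RNA was depleted, libraries were sequenced as paired ends, trimmed with Trim Galore, mapped with STAR to the mouse genome (mm10/GRCm38) and counted per gene by STAR on GENCODE M20. The submitters' processing notes name Trim Galore 0.6.0 and STAR 2.7.8a, a different STAR version from the one in the study's methods. The deposited values are the authors' raw gene counts, with no normalization or filter, and the strand setting is not given in the sources used here.

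Counts were fitted with edgeR 4.0.16 in R 4.3.3, with TMM factors, quasi-likelihood F-tests and Benjamini-Hochberg adjustment over all tested genes, with calls at an adjusted p under 0.05, as in the study's methods. The filter (filterByExpr, 16260 of 55471 genes kept) and the design of 1 term per condition over all 9 libraries were chosen here. A standard error is the absolute log2 fold change divided by the square root of F. Ratios were compared by two-sided exact permutation tests. A count of 3 corresponded to at most 0.106 CPM in any library, counting error only.

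Samples were grouped by the treatment in their labels. All 9 pairs of libraries with 1 letter deviated together from their group means (r from 0.13 to 0.55). The 18 pairs with different letters had r from -0.48 to 0.06. Centring on the group means lowers these values when the same-letter values are above 0, so they are no separate evidence. Letters were read as pairing libraries, but the fits reported and the permutation tests did not use the pairing. The pairing comes from the data, since no source states what a letter marks. The fit with the letter as a block is quoted where it changes a call. No 2 libraries of a group agreed within sampling noise (chi-square per degree of freedom 13.5 to 37.6).

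Coordinates, exon lengths and neighbours came from GENCODE M21 (GRCm38), in which 55144 of the 55471 identifiers were found. Promoter sequences came from RefSeq (GRCm38.p6). The genes and lists were chosen with earlier results of these data known. All 10 genes and all other PARP genes are named, and of each other list at most 4 genes, those called with the largest absolute log2 fold change under either stimulus. Alternatives were DESeq2 1.42.0, other scalings and filters, 2 groups alone, the block, and leaving out each library. *Irf7*, *Gm49730* and *Plec* were named after their values were seen.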

Additional observations from a re-analysis of the deposited data

How the results depend on the processing

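Across 16 alternative settings all 160 values of the 10 genes kept direction and call for LPS, and all 160 for IFN-β. For IFN-β against LPS 146 of 160 did. *Zc3hav1* was lost with scaling by library size only (-0.14, adjusted p = 0.15). *Parp10* and *Dtx3l*, not called in the fit reported, were called in 7 and 6 of the 16 settings, among them DESeq2 (-0.34 and -0.44), no filter (-0.29 and -0.38) and the replicate block (-0.30 and -0.40), which changed no other call of the 10 genes. The cause was not tested. The number of genes called stayed within 1.5 times the reported one in each comparison and setting.

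With scaling by library size only, the all-gene median log2 change was -0.62 for LPS, -0.32 for IFN-β and 0.29 for IFN-β against LPS. It moved the share of calls that were higher from 48.1%, 50.3% and 52.5% to 21.9%, 22.3% and 77.9%. It turned the direction of *Tnks* (-0.37), *Tnks2* (-0.34), *Khnyn* (-0.10) and *Kpna1* (-0.34) with LPS, and of *Tnks2* (-0.20) and *Aptx* (-0.05) with IFN-β. Of the 41 other genes examined, 625 of 655 values for LPS and 622 of 655 for IFN-β kept their call. Leaving out each library gave *Parp9* to *Dtx3l* log2 ratios of -0.03 to 0.06 for LPS, -0.46 to -0.32 for IFN-β and -0.48 to -0.34 for IFN-β against LPS. The *Dhx30*, *Parp2* and *Tnks* calls with LPS were each lost in several of these settings, *Dhx30* with DESeq2 at -0.17 (adjusted p = 0.10) and *Parp2* at -0.16 (adjusted p = 0.11). No gene of the group was near the limit set by depth.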
